A study of Mus musculus with 8 samples.

Results

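A set of 40 genes was read in every library labelled 0 h and almost not at all in those labelled 2 h. They were chosen from raw reads: at least 20 in each of the 4 libraries labelled 0 h and at most 20 summed over the 4 labelled 2 h, with protocadherin, Hox, histone, Cxcl and Ccl chemokine, Mmp, Adamts, semaphorin, Eph receptor and collagen symbols left out. The tables held 23304 genes, of which 10858 nonmembers also reached 20 reads in each 0 h library. The rule with the time labels exchanged gave 90 genes. Because the rule reads the 0 h and 2 h levels themselves, the difference between these labels is given below as a description, with no test.

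The libraries came from NIH3T3, an established line of mouse embryonic fibroblasts (strain label Swiss albino), sequenced as RNA. There were 4 groups of 2: WT 0 h and ZMYND11 KO 0 h without agent, and WT 2 h and ZMYND11 KO 2 h, each given mouse recombinant interferon-beta (IFNB) at 100 units/ml for 2 h. KO stands for CRISPR knockout of Zmynd11, a chromatin protein that reads a methylated histone H3.3. The labels do not say whether the KO cells are 1 clone or several, or whether the 2 libraries per group started from different cultures. The p-values below are therefore set against library-to-library spread alone, and that spread may be technical. In bulk RNA, fewer cells that read a gene and less of its RNA per cell cannot be told apart.

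Zmynd11 itself went against the genotype labels. It held 2511 and 2450 reads in the libraries labelled WT 0 h, 2491 and 1967 in KO 0 h, 59 and 65 in WT 2 h and 72 and 67 in KO 2 h. Thus it was high under both 0 h labels and low under both 2 h labels, as the 40 genes are, and the time label cannot be told apart from the level of Zmynd11 in these libraries. Ifit1, an interferon-induced antiviral gene, instead followed the KO labels, at 25 and 28 reads in WT 0 h, 3552 and 3427 in KO 0 h, 32 and 71 in WT 2 h and 8625 and 5427 in KO 2 h. Of 18 interferon-induced genes, 18 were called higher in KO 0 h than in WT 0 h (edgeR, median log2 fold change 3.87), although neither group is labelled as given interferon. These levels go against the labels KO 0 h and WT 2 h, and whether those 2 labels are exchanged cannot be settled from the labels. If they were, the 0 h and 2 h labels would separate WT from KO cells, and KO 0 h against WT 0 h would compare WT cells with and without interferon. Groups are named only as labelled, and each comparison below carries this limit. The library labelled KO 0 h replicate 2 stood apart in that 17498 genes had a read, against 14847 to 15945 in the others. Gene reads summed to between 13671013 and 21299120 per library. The summed level of 10 fibroblast markers was 41896 to 46620 CPM under the 0 h labels and 18990 to 20948 under the 2 h labels, where CPM are reads scaled by the effective library size. Among WT labels edgeR called 1 of the 10 higher and 8 lower at 2 h, beside 30.1% and 31.1% of all genes. Among KO labels it called 1 higher and 7 lower, beside 30% and 31.2%. The largest log2 fold changes were those of the collagen gene Col1a1, at -3.50 and -3.26. The 7 epithelial markers were also lower under the 2 h labels, at 6.30 to 7.56 and 3.13 to 3.85 CPM; of 2 tested, Krt14, a keratin, gave log2 fold changes of -2.91 among WT labels and -1.90 among KO labels (edgeR adjusted p = 5.89e-06 and 0.000679). The 4 lymphocyte markers stood at 0.0552 to 0.601 and 0 to 0.230 CPM, and 1 of them had no read in any library. The 7 macrophage markers stood at 37.8 to 75.4 and 42.4 to 78.6 CPM, the 7 neuronal and glial ones at 1.43 to 3.74 and 0.945 to 2.10. Summed levels of endothelial (6 genes, 2.41 to 5.28 and 12.2 to 14.7 CPM) and skeletal muscle markers (6 genes, 3.31 to 3.78 and 15.3 to 17.8 CPM) were higher under the 2 h labels. Single genes did not all follow. Of 5 endothelial markers tested, edgeR called only Vwf higher, with log2 fold changes of 4.75 among WT labels and 4.12 among KO labels. Cdh5 was called lower among WT labels (-1.53). Of 2 muscle markers tested, only Des was called, at 2.81 and 2.83. The part of other cells in the results was not tested.

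A gene that a cell line reads steadily can be missing from a related culture in several ways that a count table does not separate, among them loss of the DNA and a closed promoter. Whether a gene's neighbours on the chromosome keep their reads, and what the sequence at its start looks like, are 2 properties that the rule did not use. Promoters rich in CG dinucleotides belong to many widely used genes, while promoters poor in CG are common among tissue-specific genes.

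The promoter windows of 4 members are shown because they span this range: Hccs and Chic1 on chromosome X, Ddx3y on chromosome Y, and Chi3l1, which had no read under a 2 h label. Each window runs from 250 bases before to 50 after the RefSeq start (build GRCm38.p6), and capitals mark a GC box (GGGCGG) or a CCAAT box (CCAAT) on either strand. In order, the windows lie at chrX:169320323-169320622, strand -; chrX:103356226-103356525, strand +; chrY:1286564-1286863, strand -; and chr1:134181906-134182205, strand +.
Hccs: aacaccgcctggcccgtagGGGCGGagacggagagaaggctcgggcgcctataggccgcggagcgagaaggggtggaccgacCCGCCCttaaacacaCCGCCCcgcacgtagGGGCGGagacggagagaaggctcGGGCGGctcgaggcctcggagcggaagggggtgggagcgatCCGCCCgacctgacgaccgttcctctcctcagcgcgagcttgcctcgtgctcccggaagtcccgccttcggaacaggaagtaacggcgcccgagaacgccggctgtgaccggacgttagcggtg
Chic1: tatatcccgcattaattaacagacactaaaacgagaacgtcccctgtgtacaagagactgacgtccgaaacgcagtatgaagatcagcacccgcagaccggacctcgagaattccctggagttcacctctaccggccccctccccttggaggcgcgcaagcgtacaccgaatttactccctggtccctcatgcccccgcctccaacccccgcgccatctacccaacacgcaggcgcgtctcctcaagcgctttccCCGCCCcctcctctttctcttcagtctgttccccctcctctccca
Ddx3y: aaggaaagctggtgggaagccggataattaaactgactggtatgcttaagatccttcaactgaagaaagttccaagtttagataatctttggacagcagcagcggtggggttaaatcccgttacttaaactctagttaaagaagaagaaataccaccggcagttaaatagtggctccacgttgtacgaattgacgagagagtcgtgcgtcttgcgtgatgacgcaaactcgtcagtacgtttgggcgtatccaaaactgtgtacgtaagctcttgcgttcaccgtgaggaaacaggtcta
Chi3l1: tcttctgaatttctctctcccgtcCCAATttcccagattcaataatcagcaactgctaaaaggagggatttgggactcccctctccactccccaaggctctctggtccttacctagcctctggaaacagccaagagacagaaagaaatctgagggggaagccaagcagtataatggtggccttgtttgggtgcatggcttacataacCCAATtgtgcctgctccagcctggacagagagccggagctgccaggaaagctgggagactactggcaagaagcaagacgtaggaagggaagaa
The Hccs window holds 40 CG dinucleotides and 6 GC boxes. Chic1 has 22 CG dinucleotides and 1 GC box, and Ddx3y has 17 and 0. Chi3l1 holds 3 CG dinucleotides, no GC box and 2 CCAAT boxes.

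Summed over the 40 genes, the libraries labelled 0 h held 4937, 4725, 4390 and 3695 reads (WT replicates 1 and 2, then KO replicates 1 and 2), and those labelled 2 h held 61, 96, 88 and 51 in the same order. As CPM, this was 232 to 247 CPM under the 0 h labels and 3.29 to 5.34 under the 2 h labels. Hccs and Gria3 made up 33.0% of the 0 h level. The mean level of a member over the 4 libraries labelled 0 h ran from 1.37 to 44.9 CPM with a median of 2.97, and 5 members stood above 10 CPM. Under the 2 h labels 2 members had no read in any library, 6 had 1 read in all, and 13 had at least 1 read in every library. Roles, assigned from textbook knowledge once the members were known, order what follows; reads are always given as WT replicates 1 and 2, then KO replicates 1 and 2.

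**Figure D1:**
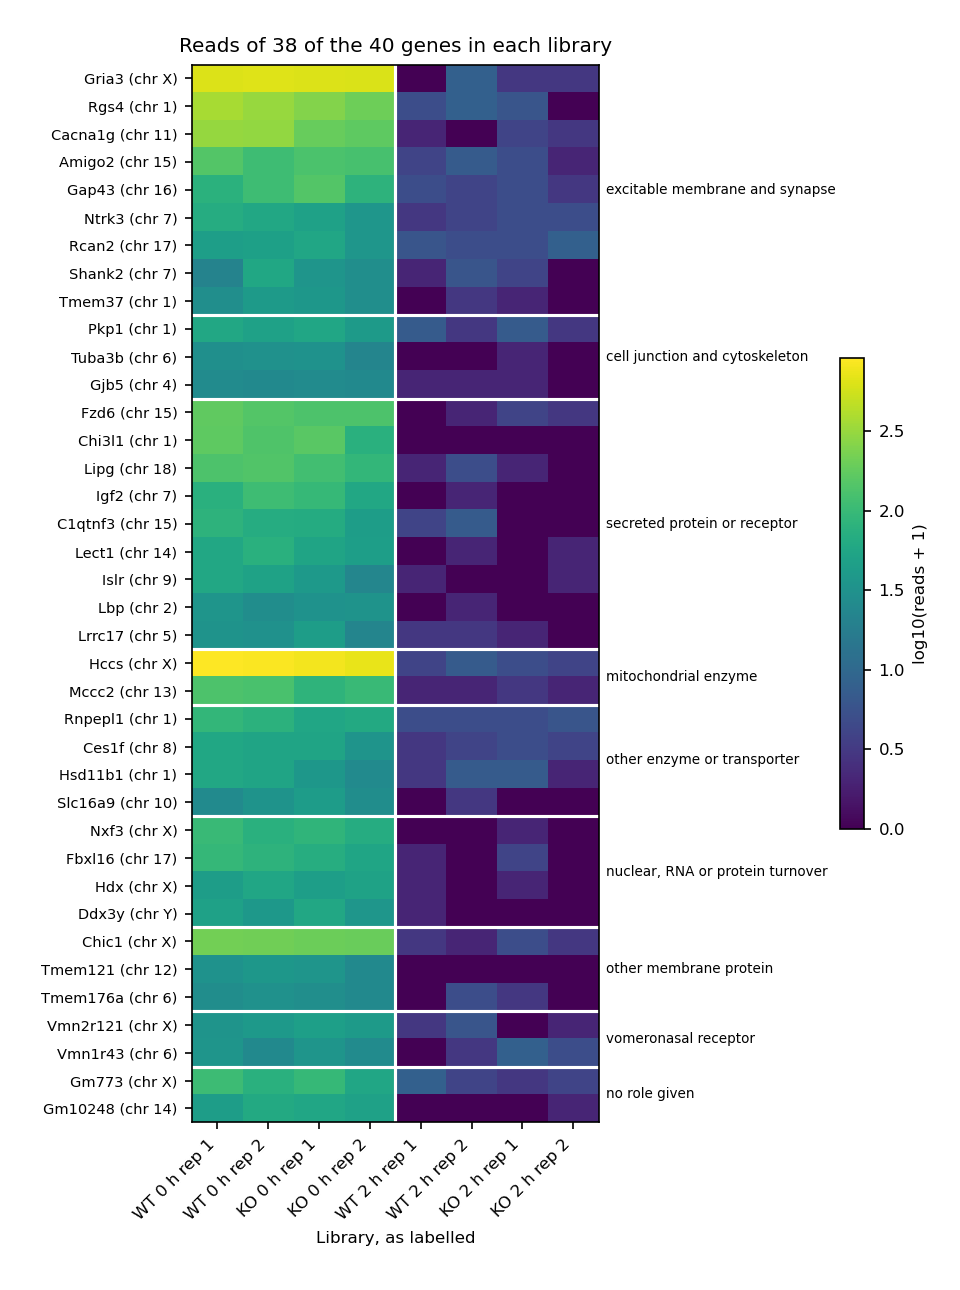
Reads of 38 of the 40 genes (rows, grouped by role, with chromosome) in the 8 libraries (columns, as labelled), coloured by log10(reads + 1). The 4 columns on the left (0 h labels) hold at least 20 reads in every row by the rule; the 4 on the right hold at most 20 in all.

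Hccs, which attaches heme to cytochrome c in mitochondria, had the highest level. It held 906, 870, 810 and 717 reads under the 0 h labels and 3, 6, 4 and 3 under the 2 h labels, a ratio of 203 in scaled reads (95% interval 125 to 355, counting error only, as for all such ratios below). Such intervals do not allow for the choice of the genes by these same reads, so they only describe the counts. The 0 h and 2 h libraries are apart by the rule, as for every member, and neither genotype label stands out within them. Mccc2, a subunit of the mitochondrial carboxylase that breaks down leucine, held 135, 126, 82 and 99 reads against 1, 1, 2 and 1, a ratio of 86.8 (36.9 to 269). Both enzymes work in nearly all cell types.

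Genes of excitable membranes and synapses numbered 9. Gria3, a subunit of AMPA-type glutamate receptors, held 628, 653, 629 and 613 reads against 0, 7, 2 and 2, a ratio of 225 (126 to 452). Rgs4, which speeds the switching off of G proteins, held 374, 312, 253 and 200 reads against 4, 7, 5 and 0 (69.9, 42.9 to 123). Cacna1g, the pore of a low-voltage calcium channel, held 311, 296, 187 and 168 reads against 1, 0, 3 and 2 (157, 72.1 to 430). In these 3 genes each 0 h library lies above each 2 h library by more than 100 reads; the genotype labels within 0 h are compared below. Amigo2, an adhesion protein first found in neurons, held 145, 107, 130 and 123 reads against 3, 6, 4 and 1, and Gap43, a protein of growth cones, held 76, 109, 146 and 81 against 4, 3, 4 and 2. Ntrk3, the receptor of neurotrophin-3, held 66, 59, 48 and 35 reads against 2, 3, 4 and 4. Gap43 and Ntrk3 had reads in all 4 libraries labelled 2 h. Rcan2, an inhibitor of calcineurin, lay at the upper limit of the rule, with 45, 47, 55 and 35 reads against 5, 4, 4 and 7 and a ratio of 8.93 (5.62 to 14.97). Shank2, a scaffold of the postsynaptic density, lay at the lower limit, with 20, 57, 34 and 28 reads against 1, 5, 3 and 0. Its 2 WT 0 h libraries differed from each other more than the KO 0 h pair did. Tmem37, related to calcium channel gamma subunits, held 28 to 40 reads per 0 h library and 3 in all under the 2 h labels.

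Proteins of cell junctions and the cytoskeleton included Gjb5, a connexin, the protein that forms gap junctions. It held 26, 24, 26 and 24 reads against 1, 1, 1 and 0, a ratio of 32.7 (10.9 to 161). Its level per kilobase of exon was 0.797 CPM under the 0 h labels. Pkp1, a plaque protein of desmosomes, had 202 reads against 16, and Tuba3b, an alpha tubulin, 111 against 1 (109, 19.2 to 4343).

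Secreted proteins and receptors numbered 9, and none of them had more than 9 reads in all under the 2 h labels. Fzd6, a receptor of Wnt proteins, held 171, 147, 136 and 136 reads against 0, 1, 3 and 2 (96.5, 44.1 to 264). Chi3l1, a secreted chitinase-like protein, held 167, 137, 157 and 74 reads and none under a 2 h label. Against a floor of 3 reads over the 4 libraries, that is at least 175-fold lower. Lipg, the endothelial lipase, held 134, 142, 115 and 89 reads against 1, 4, 1 and 0. Igf2, an imprinted growth factor of fetal tissues, held 74, 109, 95 and 58 reads against 0, 1, 0 and 0 (330, 58.8 to 13069). With 1 read its ratio is poorly bounded above. C1qtnf3, a secreted relative of complement C1q, held 80, 66, 65 and 43 reads against 3, 6, 0 and 0; all 9 of its 2 h reads fell in libraries labelled WT. Lect1, a cartilage protein that restrains vessel growth, held 59, 75, 52 and 44 reads against 0, 1, 0 and 1. Islr, a surface protein of stromal cells, had 167 reads against 2, and Lbp, which binds bacterial lipopolysaccharide, 124 against 1. Lrrc17, a leucine-rich repeat protein, was near the lower limit, at 32, 30, 43 and 21 reads against 2, 2, 1 and 0.

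The remaining members were enzymes, nuclear proteins and membrane proteins. Rnpepl1, an aminopeptidase relative, held 91, 78, 55 and 61 reads against 4, 4, 4 and 5 (16.5, 10.1 to 28.7), so its few 2 h reads were spread evenly. Hsd11b1, which regenerates active glucocorticoid, held 58, 53, 36 and 25 reads against 2, 6, 6 and 1 (11.3, 6.64 to 20.6). Ces1f, a carboxylesterase, had 195 reads against 12, and Slc16a9, a monocarboxylate transporter relative, 126 against 2. Nxf3, a member of the messenger RNA export family, held 99, 75, 85 and 66 reads against 0, 0, 1 and 0 (319, 56.9 to 12642), and the F-box protein gene Fbxl16 93, 81, 68 and 54 against 1, 0, 3 and 0. Hdx, a homeobox gene, had 191 reads against 2. Ddx3y, an RNA helicase on chromosome Y, held 48, 37, 59 and 35 reads against 1, 0, 0 and 0 (176, 31.1 to 6980). Chic1, a membrane-associated protein gene near Xist, held 212, 208, 194 and 190 reads against 2, 1, 4 and 2 (87.7, 46.0 to 193). Tmem121 held 31, 36, 34 and 24 reads and none under a 2 h label, at least 40.9-fold lower against the same floor. Tmem176a had 109 reads against 6. The vomeronasal receptor symbols Vmn1r43 (118 reads against 13) and Vmn2r121 (158 against 8) belong to large families of similar genes, so reads may be split among copies. Gm773 held 106, 75, 94 and 56 reads against 7, 3, 2 and 3, and the noncoding Gm10248 had 208 against 1. In 6 members an exon overlaps, in GENCODE M21, an exon of another gene of the count table: Hccs with Arhgap6, Amigo2 with Pced1b, Lrrc17 with Fbxl13, Tmem176a with Tmem176b, Islr with Islr2 and Vmn1r43 with Vmn1r42. The strand setting of the counting is not given, so reads of such pairs are uncertain.

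At the limit on 2 h reads, Rcan2, Rnpepl1 and Hccs were just inside with 20, 17 and 16 reads in all, while Atp1b1, Pogk and Vmn2r89 were just outside with 21 each. At the limit on 0 h reads, the lowest library held 20 reads for Shank2 and 21 for Lrrc17 and Tuba3b, against 19 for Pnma5 and 18 for Gpx7 and Nudt14 just outside. The set is thus a stretch of a continuous range and has no gap at its edges.

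The KO and WT labels at 0 h give a comparison that the rule did not use, since it asks only for 20 reads in each of these libraries. None of the 40 members was called between labelled KO 0 h and WT 0 h by edgeR's quasi-likelihood test at a Benjamini-Hochberg adjusted p below 0.05, with adjusted p from 0.116 to 0.995. The background was 3.92% of 12807 genes (502 called), with 2.65% higher and 1.27% lower in KO 0 h. Against so low a background, 0 of 40 is not a result about the members. DESeq2 called 0 members as well. At an unadjusted p below 0.05, edgeR gave 2 members, which is 5% of them, against 20.4% of all genes tested. The median member stood at only 2.97 CPM under the 0 h labels, and no share was taken over genes of like level. These 2 shares are therefore not read as a difference. Cacna1g stood at 14.9 ± 0.459 CPM in WT 0 h and 10.8 ± 0.641 in KO 0 h (mean ± SD, n = 2 each), a log2 fold change of -0.47 (SE 0.17, 95% interval -0.81 to -0.12, edgeR adjusted p = 0.116). Its groups do not overlap, nor do those of Rgs4 and Gap43 below, nor those of further members, Hsd11b1 and Vmn2r121 among them. How many of all genes separate in this way with 2 libraries each was not counted. The separation is therefore not read as a result about these genes. Rgs4 stood at 16.8 ± 2.08 and 13.7 ± 0.422 CPM (-0.30, SE 0.18, 95% interval -0.66 to 0.07, edgeR adjusted p = 0.35). Gap43 stood at 4.53 ± 1.16 and 6.74 ± 1.87 CPM (0.58, SE 0.26, 95% interval 0.03 to 1.12, edgeR adjusted p = 0.216), with KO libraries at 8.06 and 5.41 CPM and WT libraries at 3.71 and 5.36, so the groups nearly touch.

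Precision differed with depth. Hccs had a log2 fold change of 0.09 between KO 0 h and WT 0 h with an interval of -0.14 to 0.31, and Gria3 one of 0.27 (-0.04 to 0.57), so a 2-fold difference lies outside both intervals. For 21 members the interval lay within a 2-fold difference in either direction, and for 19 it did not. Slc16a9 (0.57, -0.39 to 1.52) and Vmn2r121 (0.56, -0.27 to 1.39) had upper bounds above a 2-fold difference. Hsd11b1 (-0.56, -1.39 to 0.26) and Islr (-0.54, -1.39 to 0.30) had the lowest lower bounds. The median over members was 0.09, beside 0.01 over all genes, and 25 members were above 0, beside 50.7% of all genes. Without the library labelled KO 0 h replicate 2 the members called were also 0. The background count moved with single libraries, to 174 without WT 0 h replicate 1, 191 without WT 0 h replicate 2 and 1073 without KO 0 h replicate 1, while members called stayed at 0 in each.

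**Figure D2:**
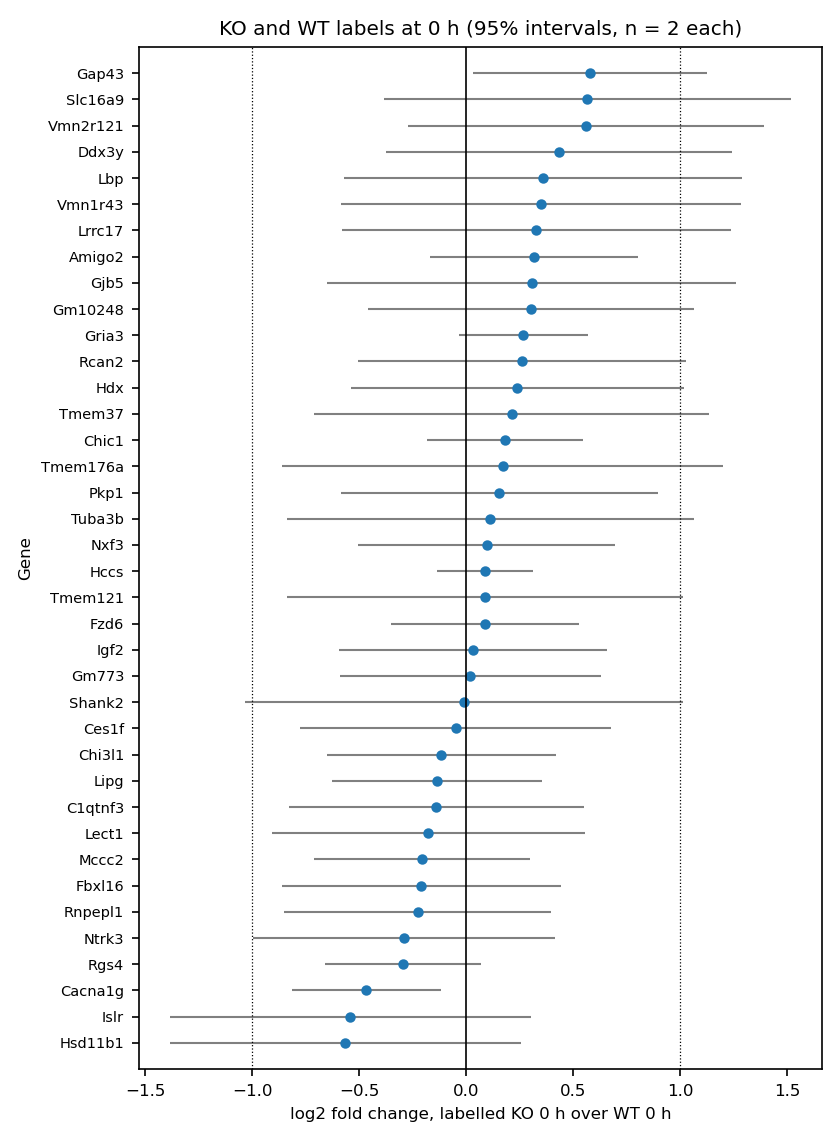
Log2 fold change of labelled KO 0 h over WT 0 h for 38 of the 40 genes, with 95% intervals (2 libraries per group, edgeR). Points run from -0.56 (Hsd11b1) to 0.58 (Gap43), and dotted lines mark a 2-fold difference.

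Between KO 2 h and WT 2 h the members could not be compared. The rule held them to 20 reads over these libraries, and none passed the filter on low counts when the 2 h libraries stood alone. They were tested only because their 0 h reads kept them in, so the count of 0 members called by edgeR is read as nothing (background 1.6% of 12807 genes, 1.59% higher and 0.00781% lower in KO 2 h). At this depth a library without a read still allows up to 3 reads, which are 0.138 to 0.210 CPM per library, above the mean 2 h level of the median member (0.0818 CPM). Differences among the 2 h libraries were therefore not detectable for most members.

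The members were spread over 17 autosomes and both sex chromosomes. Chromosomes X and 1 held 7 each, which is 17.5% of the members. Of all genes with 20 or more reads in each 0 h library, left-out symbols aside, X carries 3.24% and chromosome 1 5.73%. The X-linked members were Hccs, Gria3, Chic1, Gm773, Nxf3, Hdx and Vmn2r121, and those on chromosome 1 included Rgs4, Chi3l1, Rnpepl1, Pkp1, Hsd11b1 and Tmem37. These chromosomes were also low as a whole. The mean 2 h level as a percentage of the 0 h level had a median of 59.7% over 342 X-linked nonmembers and of 81.1% over 611 on chromosome 1, beside 97.8% over 10337 autosomal genes. Medians of single autosomes ran from 64.0% on chromosome 15, which carries Fzd6, Amigo2 and C1qtnf3, to 155% on chromosome 18, which carries Lipg. Chromosomes 3 and 12 had medians near that of chromosome 1, at 82.4% and 82.7%, but held 0 and 1 of the members. What part a chromosome-wide level has in the members was not tested.

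Hccs was part of a run of genes at the far end of chromosome X. The last 8 genes of the count table in RefSeq order are Frmpd4, Msl3, Arhgap6, Amelx, Hccs, Mid1, 4933400A11Rik and G530011O06Rik. Together they held 2797, 2685, 2676 and 2203 reads under the 0 h labels and 65, 52, 56 and 40 under the 2 h labels. Msl3, a subunit of a histone acetyltransferase complex, held 1375, 1311, 1420 and 1070 reads against 6, 6, 5 and 8, and its 2 h total of 25 reads kept it out of the set. Mid1, a ubiquitin ligase on microtubules whose gene spans the pseudoautosomal boundary in common laboratory mice, held 471, 452, 411 and 367 reads against 51, 39, 35 and 24, so it kept 8.88% of its 0 h level. G530011O06Rik held 31, 46, 29 and 38 reads against 5, 1, 11 and 5. The next 2 genes inward with 20 or more reads in each 0 h library did not follow: Prps2, which makes a precursor of nucleotides, kept 70.9% and the actin-binding gene Tmsb4x stood at 127%. Arhgap6 (18 reads against 1) and Frmpd4 (12 against 0) had few reads in any library.

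**Figure D3:**
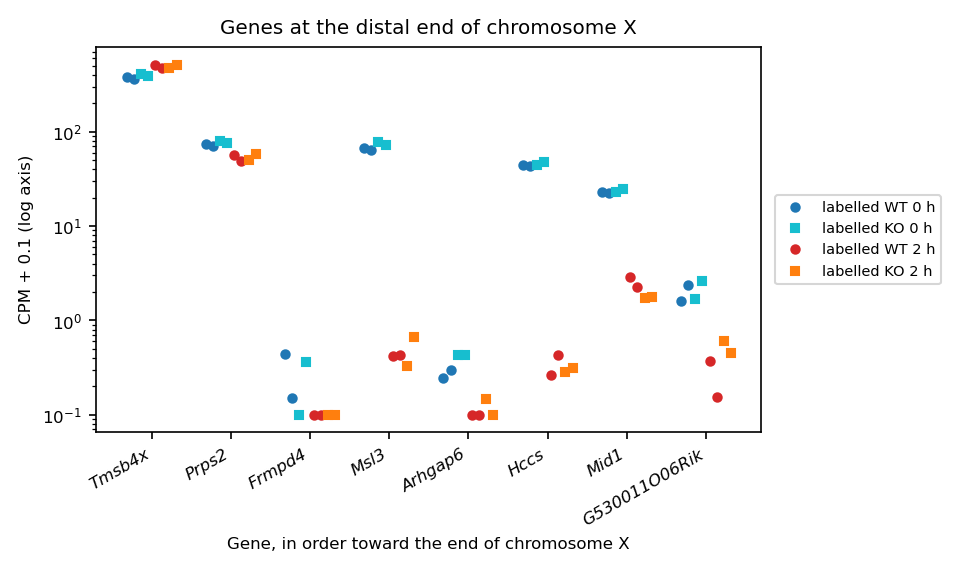
CPM + 0.1 (log axis) of 8 genes in order toward the end of chromosome X, in each of the 8 libraries. Msl3 and Hccs fall from above 40 CPM under the 0 h labels to below 1 under the 2 h labels, while Prps2 and Tmsb4x differ far less.

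Ddx3y was not alone on chromosome Y. Eif2s3y held 15, 15, 18 and 20 reads against 1, 0, 0 and 1, Kdm5d 20, 6, 9 and 5 against none, and Uty 7, 9, 4 and 7 against none. These 3 genes had too few reads for the rule. With Ddx3y they summed to 67 to 90 reads per library under the 0 h labels and 0 to 2 under the 2 h labels. Ddx3y alone gave 48, 37, 59 and 35 of these 0 h reads, so the rule itself sets much of this sum. Usp9y had 1 or 2 reads in each 2 h library and 0 to 3 in each 0 h library. Xist, the X-linked RNA of X inactivation, was at 3.22 to 7.75 CPM under the 0 h labels and 4.17 to 7.14 under the 2 h labels, and its groups overlap.

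Elsewhere most members had no near neighbour below 20% of its 0 h level, although neighbours as a whole were lower than other read genes. The 3 nearest genes on each side with 20 or more reads in each 0 h library were taken for the 39 members with such neighbours on their chromosome. Of 225 distinct neighbours that are not members, 9 (4%) stood below 20% of their 0 h level, beside 112 (1.03%) of all 10858 nonmembers. Their median was 80.5%, beside 96.5%. Neighbours were not compared with genes of the same chromosome, and chromosomes X and 1 were low as a whole. On chromosome X, Gria3 lies between C1galt1c1 (46.9%) and Thoc2 (59.4%), Chic1 between Nap1l2 (58.2%) and Xist (107%), and Nxf3 between Arxes1 (66.0%) and Tceal8 (55.5%). The 6 genes next to these 3 members thus stood between 46.9% and 107% of their 0 h level.

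The 9 low neighbours fell beside 8 members. Besides Msl3, Mid1 and G530011O06Rik at the Hccs locus, they included Ces1g (8.85%) beside Ces1f, Tmem176b (17.2%) beside Tmem176a, Slc38a4 (10.3%) beside Amigo2, Prelp (13.6%) near Chi3l1 and Adamts12 (18.9%) near C1qtnf3. Ces1g and Tmem176b are of the same family as the member beside them. Exons of Tmem176b and Tmem176a overlap in the annotation, and reads that map to several similar Ces1 genes were not assigned.

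**Figure D4:**
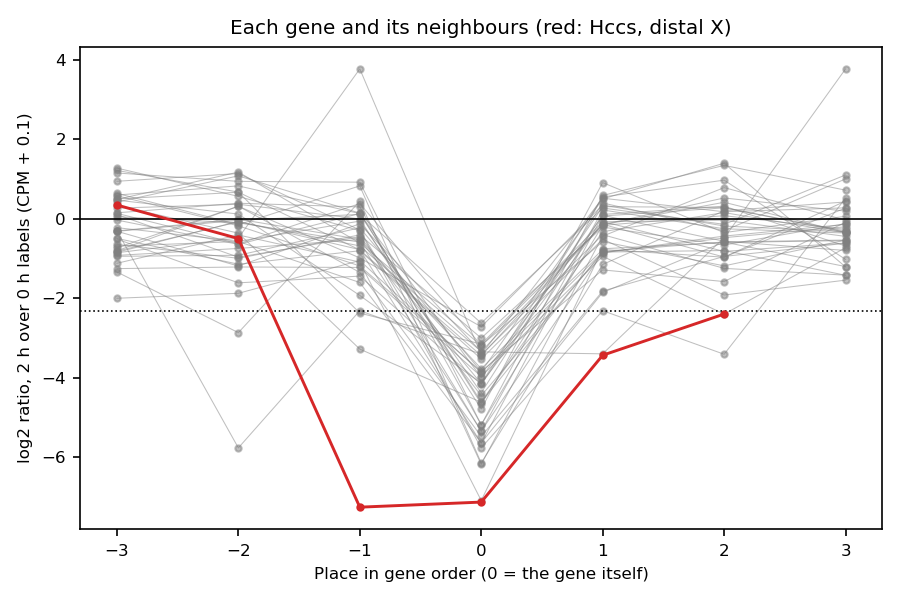
Log2 ratio of the mean 2 h level over the mean 0 h level (CPM + 0.1) for each member (place 0) and up to 3 read genes on each side in gene order; each line is 1 member and Hccs is red. The dotted line marks 20% of the 0 h level, which 9 of 225 neighbours that are not members lie under.

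The promoter windows of the members were poorer in CG dinucleotides than those of other read genes. RefSeq had 33 windows for 27 of the members. Their median was 7 CG dinucleotides (range 1 to 46), beside 21 over 11058 windows of genes with 20 or more reads in each 0 h library and 7 over all 32851 RefSeq windows. Low levels go with CG-poor windows in general: genes under 10 CPM had a median of 16 over 2001 windows, beside 7 over the 30 windows of members under 10 CPM. A window with fewer than 10 CG dinucleotides made up 54.5% of the members' windows, 18.1% of those of read genes and 56.5% of all windows. Under 10 CPM it made up 60% of the members' windows, beside 31.0% of those of read genes. On this share the members lie nearer to all windows, which include genes not read here, than to read genes. Several windows of 1 gene are not independent, and no test was made. At the rich end were Amigo2 (46), Rnpepl1 (45) and Hccs (40), and at the poor end Islr, Lect1 and Vmn1r43, with 1 each.

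Motifs were searched as letters on both strands. A GC box, GGGCGG, was in 10 of the 33 windows (30.3%), beside 64.4% of windows of read genes and 35.7% of all 32851 windows. CCAAT was in 39.4%, beside 38.4% and 37.4%. TATAAA was in 12.1%, beside 6.89% and 13.6%, and CACGTG in 3.03% (1 window), beside 10.3% and 7.15%. Among genes under 10 CPM, a GC box was in 26.7% of 30 members' windows, beside 54.7% of 2001 windows of read genes. There, TATAAA was in 10%, beside 8.50%, CCAAT in 40%, beside 40.9%, and CACGTG in 3.33%, beside 9.60%. Sites of different motifs may overlap, and each was counted. A match is a run of letters, not a bound site.

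**Figure D5:**
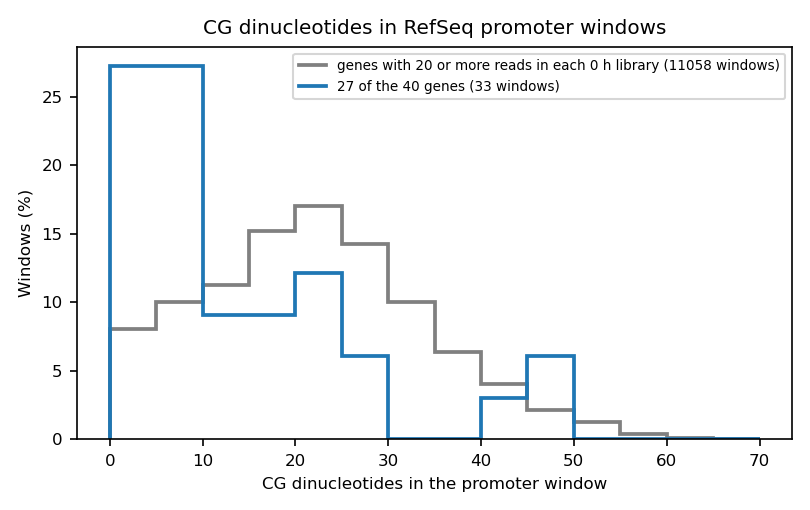
Share of promoter windows (%) by number of CG dinucleotides, for 33 windows of 27 of the 40 genes and for 11058 windows of genes with 20 or more reads in each 0 h library. The members' windows gather below 10 CG dinucleotides, where 54.5% of them lie.

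The 3 gene lists that hold a member were described without it. Igf2 belongs to 14 Igf ligands, receptors and binding proteins, of which 10 others were tested. Of these, 3 were higher and 5 lower in WT 2 h than in WT 0 h, and 3 and 4 in KO 2 h against KO 0 h, where the background was 30.1% of all genes higher and 31.1% lower among WT labels and 30% and 31.2% among KO labels. Igf1, the other growth factor of the family, had log2 fold changes of -1.72 (SE 0.14, edgeR adjusted p = 3.39e-10) among WT labels and -1.79 (SE 0.14, edgeR adjusted p = 1.99e-10) among KO labels. Igfbp4, a binding protein, went the other way, at 1.59 and 1.66 (SE 0.13 and 0.14, edgeR adjusted p = 6.44e-10 and 5.85e-10). The 10 genes' median was -0.16 and -0.13.

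Igf2 is also 1 of 36 imprinted genes, which are read from the copy of 1 parent. Of 19 others tested, 4 were higher and 9 lower among WT labels, and 4 and 11 among KO labels, with medians of -0.48 in each. Dlk1, a surface protein of precursor cells, and Slc38a4, an amino acid transporter, were among the 4 called genes with the largest changes and gave -8.10 (SE 0.15) and -3.23 (SE 0.10) among WT labels and -7.97 (SE 0.15) and -3.35 (SE 0.10) among KO labels. Slc38a4 is the neighbour of Amigo2 given above. Hsd11b1 belongs to 27 enzymes and binding proteins of retinoids, steroids and foreign compounds. Of 21 others tested, 4 were higher and 10 lower among WT labels and 6 and 11 among KO labels, with medians of -0.32 and -0.29 beside medians near 0 over all genes (0.01 and -0.01). Aldh1a1, which makes retinoic acid, was higher (6.34, SE 0.30, edgeR adjusted p = 4.75e-14, and 4.99, SE 0.27, edgeR adjusted p = 4.51e-13), while Aldh3a1, an aldehyde dehydrogenase, was lower (-3.30, SE 0.24, and -3.26, SE 0.26). None of the other genes on these 3 lists was called between KO 0 h and WT 0 h (edgeR).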

How the data were processed

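Transcripts were measured by paired-end RNA sequencing in 8 libraries in 4 groups. The authors deposited raw counts, 1 whole number of reads per gene symbol and library, with 4 summary lines that held 36.9 to 43.2% of all reads and were left out. The submitters' processing notes name HTSeq, STAR 2.5.2b, bcl2fastq 2.15 and mm9, with no roles; neither the gene annotation nor whether counting used strand is given in the sources used here. Reads mapping to several places (14.1 to 17.0%) were not assigned, which lowers counts of similar genes.

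Members were taken from raw reads. Tests used edgeR 4.0.16 in R 4.3.3 on all 8 libraries: filterByExpr (minimum count 10, minimum total 15), which kept 12807 genes and all 40 members through their 0 h reads, TMM scaling, 1 coefficient per group, robust quasi-likelihood, 4 residual degrees of freedom. A call means an adjusted p (Benjamini-Hochberg, over all genes tested) below 0.05. CPM use TMM-scaled library sizes, and 1 read was worth 0.0460 to 0.0700 CPM. Ratios of pooled scaled reads carry exact binomial 95% intervals. Ratios, intervals and floors cover counting error only and do not allow for the choice of members by the same reads. The model was tested on simulated counts for KO 0 h against WT 0 h (12625 genes): of genes given a 1.5-fold change it found 47 of 67, at 2-fold it found 57 of 67, at 4-fold 57 of 66, and 11 unchanged genes were also called. The changed genes were drawn from tested genes of every level, so these shares need not hold at the low levels of most members.

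Gene order, chromosomes and promoter windows came from RefSeq GRCm38.p6, matched by symbol for 38 members and by synonym for 2 (Chi3l1 and Lect1), and exon lengths and overlaps from GENCODE M21; these differ from the build of the counts, so gene coordinates are not given. The members and lists were chosen with earlier results of these data known. Some genes, 2 members among them, are not reported here. Values per library were printed for the other genes among the 20 highest members, those nearest the rule's limits, those on fixed lists, neighbouring members and some others chosen after their values were seen; genes of a list were named from the 4 called ones with the largest changes. Alternatives were RLE factors, library size alone, DESeq2 1.42.0, other filters, the 4 compared libraries only, a replicate block, other limits of the rule, and each library left out; in the last case a lone library of a group is assumed to vary like the others.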

Additional observations from a re-analysis of the deposited data

How the results depend on the processing

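The number of members followed the limits of the rule: it was 23 with at least 40 reads in each 0 h library and 73 with at most 40 reads in all under the 2 h labels, beside 40. Limits of 10 and 10, or 20 and 10, gave 47 and 27 genes, of which 27 and 27 were among the 40. A rule with only stricter limits, such as 20 and 10, can give no genes but these 40. Scaled reads gave 41 genes, 38 of them shared. Leaving out a library can only add genes to the set, so the 40 remain by construction and say nothing of stability. Leaving out each library gave 40 to 59 genes, and 46 without KO 0 h replicate 2.

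Genes called between KO 0 h and WT 0 h were 502, 809 without the low-count filter and 322 with a replicate block, and 174 to 1073 with each of the 4 libraries left out; the cause was not tested. Same-numbered libraries of these groups deviated with a correlation of -0.05, so the number is not known to pair them. The count of members called between these groups stayed at 0 in each alternative (lowest adjusted p 0.0616). The fit of the 2 h libraries alone gave no value for members, since none passed its filter, and their counts at 2 h say nothing of stability. The other gene counts (KO 2 h against WT 2 h, and 2 h against 0 h within each genotype label) moved by less than 1.5 times. Depth limits what can be said of the 2 h libraries.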

Other observations

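The symbols left out of the rule by class held 3 genes that meet its limits on reads. Cxcl12, a chemokine of stromal cells, had 250, 211, 152 and 122 reads under the 0 h labels (WT, then KO) and 1, 2, 0 and 0 under the 2 h labels. Adamts2, which trims procollagen, had 101, 79, 63 and 49 reads against 1, 0, 0 and 0. Ccl17, a chemokine that attracts T cells, had 67, 49, 43 and 53 against 8, 2, 8 and 1. Fmod, a collagen-binding proteoglycan gene on chromosome 1, had 39, 51, 19 and 12 reads and none under a 2 h label, and E430016F16Rik, on chromosome 7, had 47, 40, 55 and 16 against 0, 4, 8 and 0. Pnma5, an X-linked gene 1 read short of the limit in its lowest library, had 22, 19, 32 and 27 reads against 0, 1, 0 and 0.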
